A study of Mus musculus with 6 samples.

Results

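The CC chemokines examined here were Ccl2, Ccl3, Ccl4, Ccl5, Ccl6, Ccl7, Ccl8, Ccl9 and Ccl12, taken as the rows of the count table whose gene symbol equals a name on this list. All 9 were found among 15168 genes, and all 9 passed the filter on low counts that left 11878 genes for testing. The RNA came from macrophages sorted as CD45+CD11b+F4/80+CD64+ cells from full-thickness wounds (10 mm across, 2 per mouse) on the backs of female wild-type C57BL6/J mice on Day 3 after wounding. Young mice were 12 weeks old and aged mice 24 months old by the labels, with 3 samples of each age, in sets lettered A, B and C. Both ages were wounded, so no unwounded sample serves as a background. Mice were wounded under isoflurane and received buprenorphine against pain. Mice were housed at either of 2 sites, and the site of each sample is not given in the sources used here. The sort had no gate against Ly6G, so some neutrophils could remain. Nothing in the sources states that each sample came from separate animals, so the p-values measure the spread between these samples, which may be partly technical.

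CC chemokines are small secreted proteins that guide leukocytes along a gradient by binding G protein-coupled receptors of the CCR family. In a healing wound, macrophages and other cells release them to bring in monocytes, neutrophils, T cells and further macrophages. Most are immediate products of inflammatory signalling through NF-κB, and the transcripts of many are short-lived because AU-rich sequence in their 3′ UTRs recruits decay factors. In the mouse, the genes lie in groups on chromosome 11 that arose by duplication. The monocyte chemoattractant proteins (MCP: Ccl2, Ccl7, Ccl8 and Ccl12) form a group apart from the macrophage inflammatory proteins and their relatives (MIP: Ccl3, Ccl4, Ccl5, Ccl6 and Ccl9).

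Depth was alike in the 6 libraries, with 15270103 to 17927483 expected counts each, so that a single count was worth 0.0553 to 0.0701 CPM (the usual scaling of counts to library size, with TMM factors). The transcripts of all 4 sorting markers were present in every sample, with summed levels of 1254 to 1440 CPM in young and 1632 to 1789 CPM in aged samples. Among these, Itgam (CD11b) was called higher and Adgre1 (F4/80) lower in aged samples. Of 13 neutrophil markers, 12 were analysed and 4 of them rose, beside 9.73% of all genes, with summed levels of 579 to 1027 CPM in young and 790 to 1432 CPM in aged samples, which overlapped. Dendritic cell markers (8 of 9 analysed) overlapped between the ages, with 16.6 to 56.0 CPM in young samples, 32.7 and 40.9 CPM in aged samples B and C, and the highest sum of all in aged sample A. Endothelial markers (6 of 6) summed to 12.0 to 12.6 CPM in young and 25.9 to 31.3 CPM in aged samples, of which Pecam1 alone held 8.03 and 25.9 CPM on average, while 4 of the 6 had the lower mean in aged samples. Keratinocyte markers (7 of 8) summed to 1.88 to 3.37 CPM in young samples and to 9.74, 142 and 3.77 CPM in aged samples A, B and C. The 2 of them tested, Krt14 and Sfn, were both called higher, beside 9.73% of all genes. Without Krt14 the sums overlapped between the ages. Mast cell and basophil markers (5 of 6) lay between 25.3 and 94.1 CPM in the young samples and the aged set A sample, and at 0.255 and 0.0618 CPM in the other aged samples, where Cpa3, Mcpt4 and Cma1 were at 0. In bulk RNA, a change in how many cells make a transcript and a change in how much each cell makes cannot be told apart.

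In aged wound macrophages, 4 of the 9 chemokines were significantly higher than in young ones: Ccl3, Ccl4, Ccl2 and Ccl6, which rose 4.43-fold, 3.04-fold, 2.43-fold and 1.83-fold in mean CPM. The threshold for a call was an adjusted p of 0.05 (quasi-likelihood test of edgeR, with the Benjamini-Hochberg method applied to the whole table). Over all 11878 genes, 9.73% were called higher and 7.97% lower in aged samples. In the main fit (edgeR with TMM scaling on all 6 samples) none of the 9 was called lower, and none was by DESeq2 or limma-voom. Without adjustment, 1 of them, Ccl12, passed 0.05 in edgeR with the lower level in aged samples. Over all 11878 genes, 4101 passed 0.05 without adjustment, in either direction. With the added limit of a 2-fold change, Ccl2, Ccl3 and Ccl4 stayed above it, against a background of 4.59% of genes higher and 4.20% lower. All 3 aged samples lay above all 3 young samples for 5 of the 9 genes, against 19.2% of all genes, and all lay below for none of them, against 19.0%. The median log2 fold change of the 9 was 0.87, beside -0.02 over all genes tested.

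**Figure D1:**
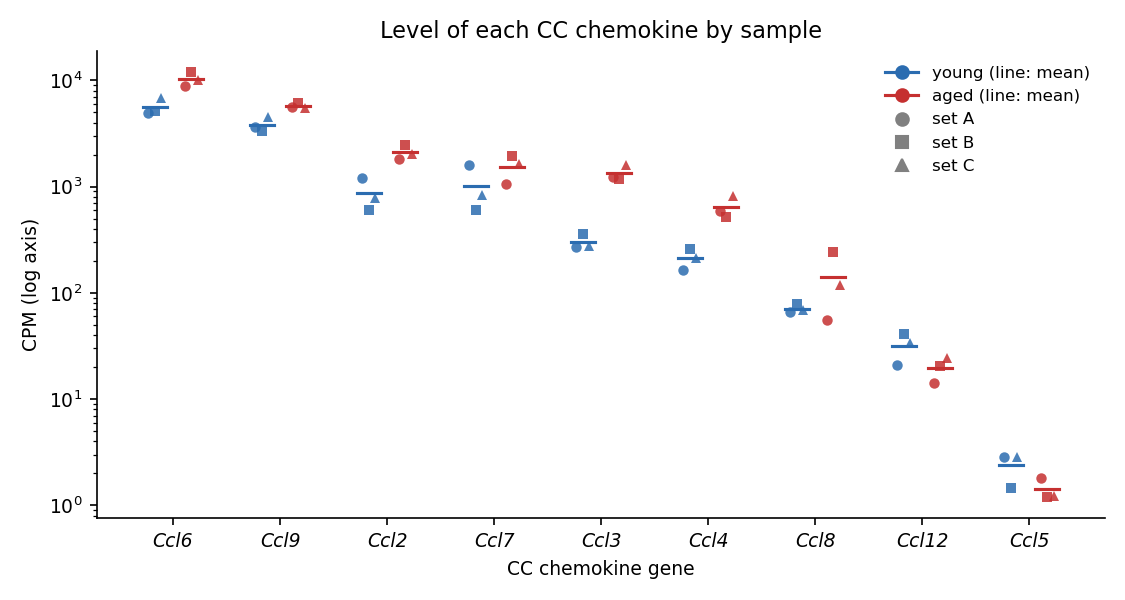
Level of each CC chemokine in each sample, as CPM on a log axis, with genes ordered by their mean in aged samples. Blue symbols are young and red symbols aged samples, shapes mark the sets and short lines the means (n = 3 per age). The aged samples lie apart above the young ones for Ccl6, Ccl9, Ccl2, Ccl3 and Ccl4, and the ages overlap for Ccl7, Ccl8, Ccl12 and Ccl5.

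The summed level of the 9 genes was 11863, 10378 and 13453 CPM in young samples A, B and C and 19303, 24409 and 21710 CPM in the aged ones. Every aged sample thus exceeded every young sample. The mean was 11898 ± 1538 CPM for young and 21808 ± 2554 CPM for aged samples (SD, n = 3), a ratio of 1.83. Without TMM scaling, the 9 genes held 1.26% ± 0.113% of all expected counts in young libraries and 2.05% ± 0.306% in aged ones (SD, n = 3). The exact two-sided permutation test gave p = 0.1, the smallest that 3 samples against 3 can give. Divided by transcript length, the ratio was 1.98.

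Ccl3 and Ccl4 encode the alpha and beta forms of macrophage inflammatory protein, and CCL3 is a ligand of CCR1. Both are among the early chemokines of activated macrophages and neutrophils. Ccl3 (ENSMUSG00000000982, mm10 chr11:83647844-83649355, minus strand) was at 272.6, 356.5 and 273.2 CPM in young samples A, B and C, and at 1241, 1164 and 1591 CPM in the aged samples. The lowest aged sample lay more than 3 times as high as the highest young one. The log2 fold change was 2.15 with a standard error of 0.20 (95% interval 1.70 to 2.60, edgeR adjusted p = 0.00127), the largest of the 9. Ccl4 (ENSMUSG00000018930, chr11:83662584-83664683, plus strand) was at 162.6, 257.5 and 212.0 CPM in young and 594.1, 518.0 and 809.7 CPM in aged samples. These groups did not overlap either, and set C was the highest aged sample for both genes. The log2 fold change of Ccl4 was 1.60 with a standard error of 0.23 (95% interval 1.09 to 2.11, edgeR adjusted p = 0.00398). Both calls held in each of the 6 fits that left out 1 sample, with adjusted p-values of 0.000554 to 0.0133 for Ccl3 and 0.00306 to 0.0377 for Ccl4. Neutrophil markers, of which Retnlg, Cxcr2, Lcn2 and Cd177 were called higher, summed to 1426, 790 and 1432 CPM in aged samples A, B and C and to 579, 1027 and 889 CPM in young ones, and their part in these results was not tested.

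The 2 genes stand next to each other in opposite orientation. The ratio of Ccl3 to Ccl4 CPM was 1.68, 1.38 and 1.29 in young samples and 2.09, 2.25 and 1.96 in aged samples. A ratio within a sample does not depend on the scaling of the library. All aged ratios lay above all young ones, a difference of 0.54 on the log2 scale. Over 12 such ratios between genes of the same group (Ccl5 left out), chosen with the levels known, 8 did not overlap between the ages. Each of these had the smallest exact permutation p that 3 against 3 can give, 0.1 (0.15 with Benjamini-Hochberg adjustment over the 12), so none could pass the threshold. The 12 ratios reuse the same few genes and are not independent. Over all single genes, the aged samples lay wholly above in 19.2% and wholly below in 19.0%, and no such share was computed for ratios.

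Ccl2 encodes the classical monocyte chemoattractant and is the main ligand that draws CCR2+ monocytes into injured tissue. It lies at chr11:82035571-82037453 on the plus strand (ENSMUSG00000035385). Its level was 1213, 603.6 and 787.0 CPM in young samples A, B and C and 1830, 2460 and 2044 CPM in aged samples. The aged samples were all higher, and the young set A sample was well above the other 2. On the log2 scale the change was 1.28 with a standard error of 0.26 (95% interval 0.71 to 1.86, edgeR adjusted p = 0.013). Leaving out the young set C sample ended the call (log2 fold change 1.22, edgeR adjusted p = 0.0762, in a fit that called 1.24% of all genes higher), and over all 6 such fits the adjusted p-value ranged from 0.00235. Of 7 monocyte markers, all 7 were analysed and 2 were called higher, beside 9.73% of all genes. Their levels summed to 1338, 2265 and 3028 CPM in young and 4471, 3355 and 3124 CPM in aged samples. Without Chil3, the most abundant of them and not called, the sums overlapped, at 696, 1130 and 1035 against 1660, 769 and 1220 CPM (young A, B and C against aged A, B and C), and the means of Ly6c2, Ccr2 and Plac8 were each lower in aged samples. The part of these cells in the rise of Ccl2 was not tested. The gene overlaps Gm17268 on the opposite strand in the GENCODE annotation, which was not analysed here, and its expected counts were not whole in any of the 6 samples.

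The study measured Ccl2 by qRT-PCR as well. The primer pair is shown because it falls within the gene's counted transcript and has mismatches to the other listed chemokines. Ccl11, Gm17268 and genes outside the list were not compared. Placed on the main GENCODE transcript, the pair spans bases 140 to 245, an amplicon of 106 bases. The nearest match in another of the 9 transcripts had 4 mismatches for the forward primer (Ccl7) and 5 for the reverse primer (Ccl12).
Ccl2 forward primer: tggagcatccacgtgttgg
Ccl2 reverse primer: tgtagctctccagcctactca

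Ccl7, Ccl8 and Ccl12 also attract monocytes, Ccl7 and Ccl12 through CCR2, and lie within 81.2 kb of Ccl2. Yet none of them passed the main edgeR test. Ccl7 (ENSMUSG00000035373, chr11:82045712-82047525, plus strand) was at 1579, 604.4 and 823.8 CPM in young and 1056, 1916 and 1625 CPM in aged samples. The young set A sample exceeded the aged set A sample, so the ages overlapped. The log2 fold change was 0.61 with a 95% interval of -0.14 to 1.37 (edgeR adjusted p = 0.228). Without the young set A sample it was 1.10 with an adjusted p of 0.0191 in the same test. That fit called 13% of all genes higher. On all samples, limma-voom called Ccl7 higher (log2 fold change 0.84, adjusted p = 0.0293) and DESeq2 did not (adjusted p = 0.153). These tests called 16.3% and 11.7% of all genes higher. Mast cell and basophil markers summed to 94.1, 46.2 and 25.3 CPM in young and 61.8, 0.255 and 0.0618 CPM in aged samples A, B and C, so the young sample with the most Ccl7 had the most of them and the aged samples with the most Ccl7 had the least. Their part was not tested.

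Ccl8, whose product acts mainly through CCR8 in the mouse, differed most among the aged samples. Ccl8 (ENSMUSG00000009185, chr11:82115185-82116799, plus strand) was at 65.71, 78.38 and 69.16 CPM in young samples A, B and C and at 55.91, 244.5 and 119.7 CPM in the aged ones. The aged set A sample was below all young samples, while aged samples B and C were above them. Its coefficient of variation was 9.21% among young and 68.5% among aged samples, the widest gap between the ages among the 9. This gave a log2 fold change of 0.98 with a 95% interval of 0.08 to 1.87 (edgeR adjusted p = 0.114). It fell to 0.32 without the aged set B sample (adjusted p = 0.475) and rose to 1.36 without the aged set A sample (adjusted p = 0.0174). These fits called 7.32% and 7.05% of all genes higher. On all samples, DESeq2 called Ccl8 higher (adjusted p = 0.0418) and limma-voom did not (adjusted p = 0.0773). These tests called 11.7% and 16.3% of all genes higher. Markers of resident macrophages, 8 of 8 analysed, followed the same order among aged samples, with sums of 188, 665 and 307 CPM in A, B and C. They were at 531, 593 and 486 CPM in the young samples. Of the 8, 5 had the lower mean in aged samples. Of the 7 tested, 1 was called, Fcrls, beside 7.97% of all genes called lower. Fcrls fell from 131.1 to 27.2 CPM (edgeR adjusted p = 0.0119). Fibroblast markers (8 of 8) summed to 13.2, 122 and 36.4 CPM in aged samples A, B and C and to 29.2, 23.7 and 41.7 CPM in young ones. The part of these cells in the Ccl8 values was not tested.

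Ccl12 (ENSMUSG00000035352, chr11:82101845-82103400, plus strand), a CCR2 ligand, pointed the other way from its neighbours. It was at 21.02, 40.89 and 33.49 CPM in young and 14.15, 20.57 and 24.4 CPM in aged samples. The lowest young sample lay within the aged range. The log2 fold change was -0.69 with a 95% interval of -1.29 to -0.09 (edgeR adjusted p = 0.1). Leaving out that young set A sample gave -0.91 (adjusted p = 0.0227), in a fit that called 9.29% of all genes lower. With library totals in place of TMM scaling, edgeR gave Ccl12 -0.86 (adjusted p = 0.0498) and called 13.1% of all genes lower. Ratios to its neighbours within the same sample overlapped for Ccl7, at 75.1, 14.8 and 24.6 in young and 74.6, 93.1 and 66.6 in aged samples, and did not for Ccl2 and Ccl8. The ratio of Ccl2 to Ccl12 was 57.7, 14.8 and 23.5 in young samples and 129, 120 and 83.8 in aged samples. The ratio of Ccl8 to Ccl12 was 3.13, 1.92 and 2.07 in young and 3.95, 11.9 and 4.91 in aged samples. Ccl2 against Ccl7, at 0.768, 0.999 and 0.955 in young and 1.73, 1.28 and 1.26 in aged samples, was separated as well.

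**Figure D2:**
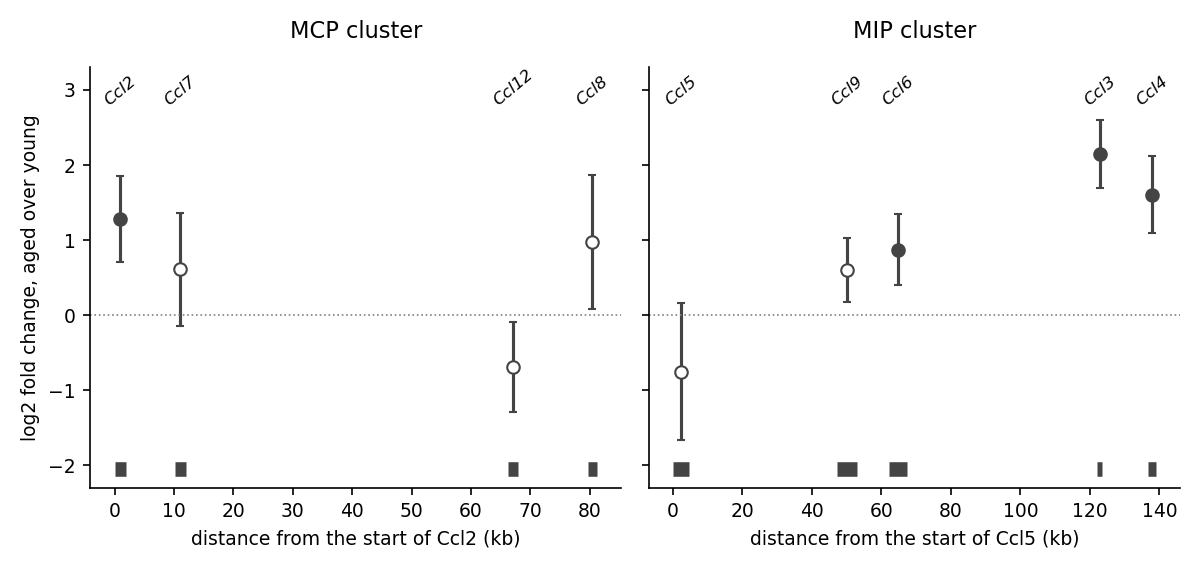
Log2 fold change (aged over young) of each chemokine with its 95% interval, placed by distance in kb along its gene group, with bars below showing the extent of each gene; filled points had an adjusted p under 0.05. In the MCP group only Ccl2 was called, and in the MIP group Ccl3, Ccl4 and Ccl6 were called while Ccl5 lay below 0.

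Ccl6 and Ccl9 encode CCR1 ligands that mouse myeloid cells make constitutively, and they were the most counted of the 9. Ccl6 (ENSMUSG00000018927, chr11:83587882-83593087, minus strand) was at 4928, 5128 and 6782 CPM in young and 8856, 11952 and 10054 CPM in aged samples. The aged samples were all above the young ones. Between the ages the log2 fold change was 0.87 with a standard error of 0.21 (95% interval 0.40 to 1.35, edgeR adjusted p = 0.0238). This call was the least stable of the 4, held in 3 of the 6 fits that left out 1 sample. It was lost without young B (adjusted p = 0.0861), young C (0.0582) or aged C (0.0791), all in edgeR. The log2 fold change in these 3 fits was 0.82, 1.03 and 0.90, and they called 3.57%, 1.24% and 2.87% of all genes higher. Ccl6 is overlapped by the lncRNA gene E230016K23Rik on the other strand, which rose from 1.46 ± 0.91 to 6.62 ± 2.99 CPM (SD, n = 3, edgeR adjusted p = 0.0218). The strand setting of the counting is not stated, and at such a low level beside Ccl6 its reads cannot be told apart from those of Ccl6.

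Ccl9 (ENSMUSG00000019122, chr11:83572919-83578636, minus strand) was at 3618, 3307 and 4469 CPM in young and 5654, 6133 and 5441 CPM in aged samples. The ages did not overlap, and the aged samples varied least of all 9 genes, with a coefficient of variation of 6.17%. Even so, Ccl9 missed the threshold, its log2 fold change being 0.60 (95% interval 0.17 to 1.02, standard error 0.19, adjusted p = 0.0555 in edgeR). DESeq2 and limma-voom on the same counts gave adjusted p-values of 0.00777 and 0.0383, and called 11.7% and 16.3% of all genes higher. Within samples, the ratio of Ccl6 to Ccl9 was higher in all aged samples, at 1.36, 1.55 and 1.52 in young and 1.57, 1.95 and 1.85 in aged samples. Of the 50-base stretches of the Ccl9 transcript, 2.0% (59 positions) also occur in other genes' transcripts. No such stretch was shared by the other 8 transcripts.

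Ccl5, a ligand of CCR1 and CCR3 that T cells and natural killer cells make in quantity, was barely present. Ccl5 (ENSMUSG00000035042, chr11:83525778-83530518, minus strand) had 52, 25 and 43 counts in young samples A, B and C and 26, 19 and 20 counts in aged ones. In CPM this was 2.88, 1.47 and 2.84 in young and 1.82, 1.21 and 1.24 in aged samples, which overlapped. The log2 fold change was -0.75 with a 95% interval of -1.67 to 0.16 (edgeR adjusted p = 0.224), so no difference was called. Markers of T and natural killer cells, of which 9 of 13 were analysed, summed to 7.69, 7.80 and 5.35 CPM in young and 4.41, 3.25 and 3.21 CPM in aged samples. The mean was lower in aged samples for 6 of these 9, among them Cd4, Nkg7, Klrb1c and Gzma, and higher for Cd3d, Cd3e and Trac. The part of such cells in the Ccl5 values was not tested.

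Levels of different genes were compared as CPM per kb of transcript. Ccl6 was highest at both ages, with means of 3898 in young and 7144 CPM per kb in aged samples, followed in young samples by Ccl9 (1264), Ccl7 (1251) and Ccl2 (1067). In aged samples the next were Ccl2 (2597), Ccl7 (1913), Ccl9 (1910) and Ccl3 (1739). The neighbours from Ccl9 to Ccl2 in the young order, and from Ccl2 to Ccl3 in the aged order, overlapped in their samples and did not differ beyond their spread. At the lower end the order was the same at both ages: Ccl4, at 319.3 and 970.6 CPM per kb, stood above Ccl8 (139.1 and 274.0), Ccl12 (59.22 and 36.7) and Ccl5 (4.50 and 2.67), with no overlap between neighbours. Ccl3 overlapped Ccl4 in young but not in aged samples. Among 14855 genes with a length, Ccl6 ranked 25th in young and 11th in aged samples, Ccl2 114th and 45th, and Ccl3 260th and 81st.

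The make-up of the chemokine counts was described by the share of each gene. Ccl6 supplied 47.12% ± 4.86% of the summed CPM of the 9 in young and 47.05% ± 1.67% in aged samples (SD, n = 3). The share of Ccl3 was 2.30%, 3.44% and 2.03% in young and 6.43%, 4.77% and 7.33% in aged samples. The share of Ccl9 was 30.5%, 31.9% and 33.2% in young and 29.3%, 25.1% and 25.1% in aged samples. Thus Ccl3 took a larger part and Ccl9 a smaller part in every aged sample than in any young one. The shares of Ccl12 (0.273% against 0.090%) and Ccl5 (0.0198% against 0.0067%) were also lower in all aged samples. These 4 differences had an exact permutation p of 0.1, the smallest possible here (0.225 with adjustment over the 9 shares), and the shares of the other 5 genes overlapped.

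**Figure D3:**
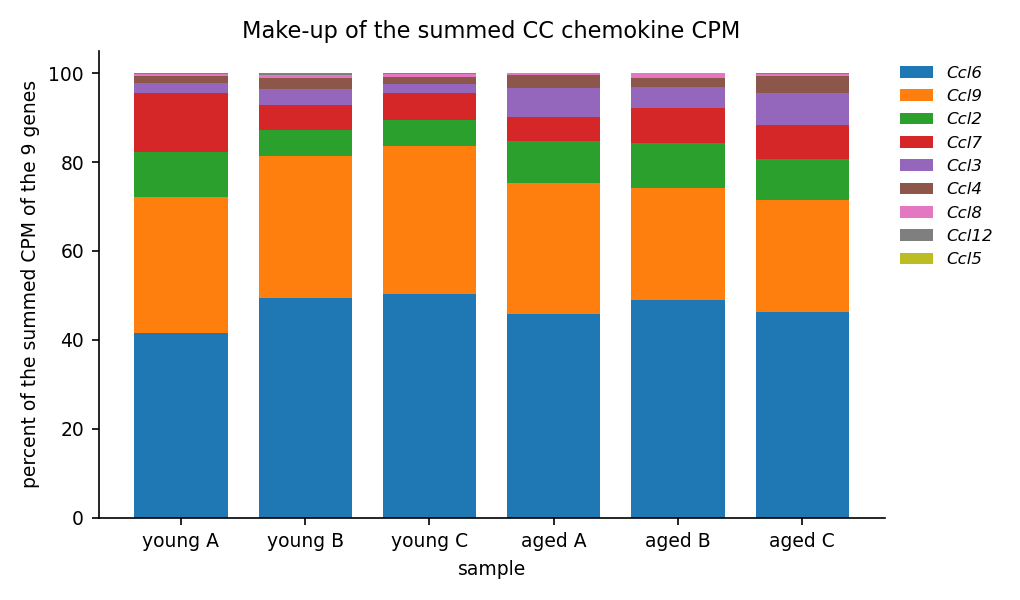
Share of each chemokine in the summed CPM of the 9 genes, in percent, for each young and aged sample. Ccl6 and Ccl9 make up most of every bar, the Ccl3 segment is taller in all 3 aged samples, and the young A sample has the tallest Ccl7 segment.

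Likeness of the 9 to each other across the 6 samples was measured as the root mean square difference of centred log2 CPM. It was 0.176 between Ccl6 and Ccl9, 0.299 between Ccl3 and Ccl4, and 0.374 between Ccl2 and Ccl7. In coding sequence these pairs were identical at 68.1%, 68.1% and 65.3% of the bases of the shorter gene. Ccl8 and Ccl12, the pair most alike in coding sequence at 69.8%, had log2 fold changes of opposite sign, as did Ccl7 and Ccl12 (67.4%) and Ccl2 and Ccl12 (67.0%). The nearest gene to Ccl8 among the 9 was Ccl6 at 0.524. The lowest identity was 50.2%, between Ccl6 and Ccl8. These values describe 6 samples that include the age difference itself.

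Over the 6587 other genes with a mean of at least 10 CPM (6588 for Ccl5, itself below that level), the closest to each chemokine by the same measure were as follows. For Ccl3 they were Tgm1 (0.0896), Spint1 (0.157) and Sema3c (0.188), and for Ccl4 Gadd45a (0.131), Cish (0.183) and Cxcl2 (0.183), the last a neutrophil-attracting CXC chemokine. For Ccl2 they were Map3k20 (0.0772), Dhrs9 (0.107) and Taok1 (0.124), and for Ccl7 Isy1 (0.148), Rbm15b (0.173) and Msmo1 (0.2). For Ccl6 they were Rcl1 (0.0934), Slc25a37 (0.1) and Bcl3 (0.103), and for Ccl9 Hipk1 (0.0484), Gmcl1 (0.0823) and Faf2 (0.0838). Finally, Ccl8 was nearest to Kif1b (0.217), Hip1 (0.247) and Rcn3 (0.249), Ccl12 to Lcmt1 (0.0923), Otulinl (0.0962) and Ptcd2 (0.102), and Ccl5 to Pfdn4 (0.169), Pigt (0.17) and Snrpd3 (0.182). The matches of Ccl8 were the least close of the 9.

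Promoter sequences were examined because genes of the same group moved apart or together. RefSeq promoters (GRCm38.p6, 250 bases before to 50 after the start) were at hand for 5 of the 9 genes, Ccl3, Ccl6, Ccl8, Ccl9 and Ccl12. The other genes were Ccl2, Ccl4, Ccl5 and Ccl7. Capitals mark matches on either strand to the NF-κB consensus, AP-1 (TGANTCA), the interferon elements ISRE (GAAANNGAAA) and GAS (TTCNNNGAA), or the TATA box (TATAAA, added after the sequences were seen). No motif had to be free of overlap with another.
Ccl9, chr11:83578587-83578886, minus strand: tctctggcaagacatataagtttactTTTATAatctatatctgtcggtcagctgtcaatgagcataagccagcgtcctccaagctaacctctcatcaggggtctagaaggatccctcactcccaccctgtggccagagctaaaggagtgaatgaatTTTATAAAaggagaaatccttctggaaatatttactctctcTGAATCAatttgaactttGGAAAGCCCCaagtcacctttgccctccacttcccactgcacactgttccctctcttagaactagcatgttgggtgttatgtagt
Ccl6, chr11:83593038-83593337, minus strand: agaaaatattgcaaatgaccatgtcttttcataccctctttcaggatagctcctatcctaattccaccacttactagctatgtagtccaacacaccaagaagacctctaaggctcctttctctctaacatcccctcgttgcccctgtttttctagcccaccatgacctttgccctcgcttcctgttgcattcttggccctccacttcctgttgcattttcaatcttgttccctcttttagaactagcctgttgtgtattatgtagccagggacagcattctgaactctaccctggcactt
Ccl3, chr11:83649329-83649628, minus strand: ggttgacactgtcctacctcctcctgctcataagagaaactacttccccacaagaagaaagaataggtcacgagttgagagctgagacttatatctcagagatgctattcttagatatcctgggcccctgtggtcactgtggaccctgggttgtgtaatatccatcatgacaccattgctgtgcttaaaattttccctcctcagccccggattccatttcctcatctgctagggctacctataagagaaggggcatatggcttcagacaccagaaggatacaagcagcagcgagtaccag
Ccl8, chr11:82114935-82115234, plus strand: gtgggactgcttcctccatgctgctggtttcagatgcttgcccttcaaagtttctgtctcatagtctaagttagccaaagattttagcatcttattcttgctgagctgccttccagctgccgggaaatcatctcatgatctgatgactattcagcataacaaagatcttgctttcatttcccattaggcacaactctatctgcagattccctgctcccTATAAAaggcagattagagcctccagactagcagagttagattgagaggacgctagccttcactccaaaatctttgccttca
Ccl12, chr11:82101595-82101894, plus strand: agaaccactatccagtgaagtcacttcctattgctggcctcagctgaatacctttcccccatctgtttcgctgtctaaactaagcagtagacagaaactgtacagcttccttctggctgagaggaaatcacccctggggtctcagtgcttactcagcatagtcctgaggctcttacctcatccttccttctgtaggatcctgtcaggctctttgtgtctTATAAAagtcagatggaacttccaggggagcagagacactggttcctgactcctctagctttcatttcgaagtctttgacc

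Only Ccl9 of these 5 held the NF-κB consensus, at -35 to -26 from the start, and the AP-1 letters, at -53 to -47. Of 32841 promoters of that length, 8.46% held the NF-κB consensus and 7.81% the AP-1 letters. None of the 5 held the ISRE letters (3.44% of all promoters) or the GAS letters (8.30%). The TATA letters stood at -32 to -27 in Ccl8 and -31 to -26 in Ccl12, and further upstream in Ccl9, whereas 13.6% of all promoters held them on either strand. The promoters of Ccl8 and Ccl12 were the most alike of the 10 pairs, with 57.7% identity against 43.3% to 51.0% for the other 9. Ccl6 and Ccl9 had the longest run in common, 13 bases (gccctccacttcc). Ccl3, whose rise was the largest, held none of the 5 motifs in this window. A match describes letters, not a binding site, and no match says only that these letters are not in this window.

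AU-rich pentamers (ATTTA) in the 3′ UTR were counted as a feature the choice of genes did not use. Ccl3, Ccl9 and Ccl12 had 5 each, Ccl6 had 4, Ccl4 and Ccl7 had 2 each and Ccl2 had 1, while Ccl5 and Ccl8 had none. That makes 7 of 9 with at least 1 pentamer, beside 64.8% of 14549 genes with a 3′ UTR in the same range of lengths (168 to 2468 bases). The UTRs of Ccl12 and Ccl3 are shown over the 30 bases that hold the most pentamers, in capitals, since Ccl12 packs its 5 into 170 bases and Ccl3 into 412. Ccl9 spreads the same number over 2468 bases.
Ccl3, bases 142 to 171 of the 3′ UTR: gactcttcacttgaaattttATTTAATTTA
Ccl12, bases 95 to 124 of the 3′ UTR: ATTTAaacaaacttgcttaaataatATTTA

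Other genes of the pathway came from lists chosen with earlier results of these data known. Of 12 other CC ligands, 6 were analysed and 3 were abundant enough to test, and none was called. Ccl22, a CCR4 ligand of dendritic cells and macrophages, was at 3.04, 3.64 and 0.46 CPM in young and 6.45, 9.55 and 5.87 CPM in aged samples, with all aged samples above (log2 fold change 1.60, edgeR adjusted p = 0.0611). Ccl24, an eosinophil attractant, had a log2 fold change of 0.79 (adjusted p = 0.0806), and Ccl25 one of 0.12 (adjusted p = 0.845). At an unadjusted p under 0.05 in edgeR Ccl22 and Ccl24 passed, beside 4101 of all 11878 genes in either direction. DESeq2 called 2 of the 3 higher, beside 11.7% of all genes. Ccl11, which lies between Ccl7 and Ccl12, had 12, 0 and 2 counts in young and 3, 7 and 2 counts in aged samples and was not tested.

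On the receptor side, 9 of 15 CC receptor genes were analysed and 7 tested. Ccr1, the receptor for CCL3, CCL6 and CCL9, was the only one called higher, beside 9.73% of all genes. It was at 1061, 445.1 and 372.5 CPM in young and 2073, 1049 and 1393 CPM in aged samples, so that young sample A and aged sample B overlapped (a log2 fold change of 1.26 ± 0.39, adjusted p = 0.047 in edgeR). It was not called by DESeq2, with library totals, without a filter, or in 4 of the 6 fits that left out 1 sample (those without young B, young C, aged A or aged C). Those 4 fits called 3.57%, 1.24%, 7.05% and 2.87% of all genes higher. Ccr2, the receptor for CCL2, had a log2 fold change of -0.16 (95% interval -0.78 to 0.45, edgeR adjusted p = 0.706), the lowest of the list. The highest was that of Ccr9 at 1.56 (adjusted p = 0.289), a gene with means of 0.52 and 1.61 CPM. The list's median was 0.99, beside -0.02 for all genes.

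**Figure D4:**
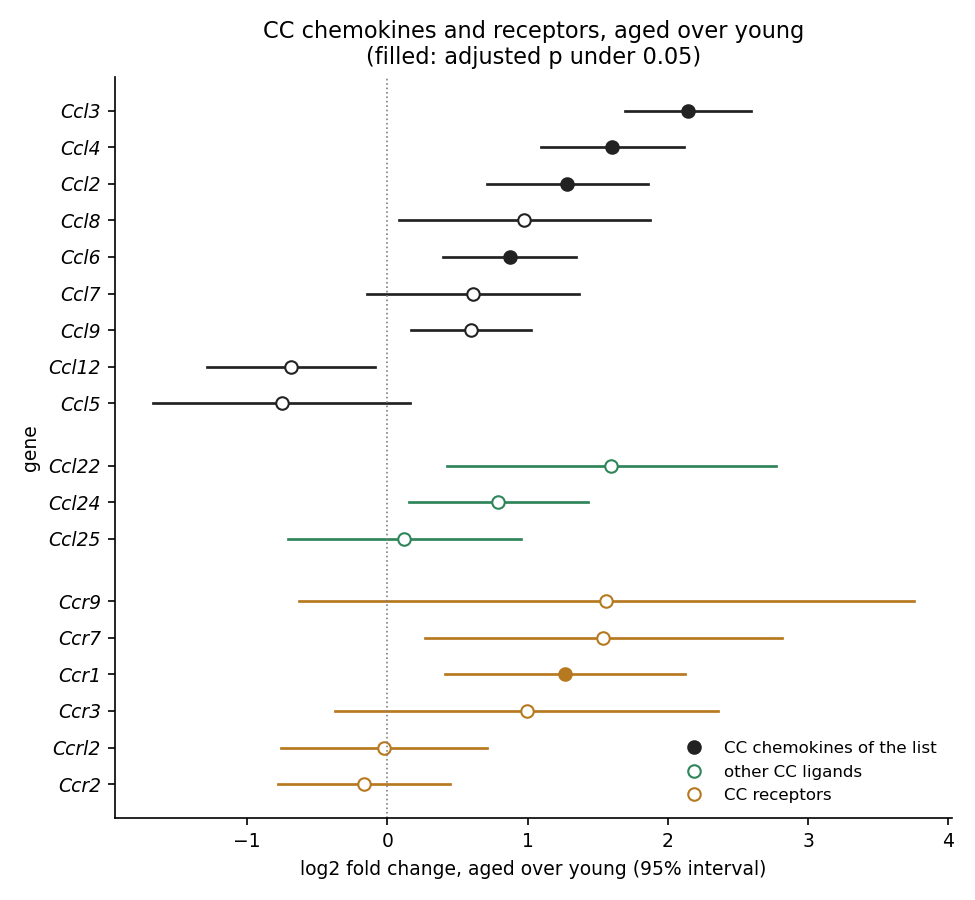
Log2 fold change, aged over young, with 95% interval for the 9 chemokines (black), 3 other CC ligands (green) and 6 CC receptors (gold); filled points had an adjusted p under 0.05. Ccl3, Ccl4, Ccl2, Ccl6 and Ccr1 are filled, and the intervals of Ccl7, Ccl5, Ccl25, Ccr2, Ccr3, Ccr9 and Ccrl2 cross 0.

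Of 21 genes that carry the signal from these receptors, 2 rose and 2 fell, close to the background of 9.73% higher and 7.97% lower over all genes, with a median log2 fold change of 0.02. Pik3r5, a regulatory subunit of the PI3-kinase that G proteins activate, rose by 1.14 (edgeR adjusted p = 0.0114), and Gnai3, an inhibitory G protein subunit, by 0.89 (adjusted p = 0.0122). Rgs2, which quenches G protein signals, fell by 1.31 on the log2 scale (adjusted p = 0.0259), and Arrb2, the arrestin that takes receptors off the surface, fell by 0.75 (adjusted p = 0.0264). Without young sample C none of these 4 was called, in a fit that called 1.24% of all genes higher and 0.548% lower. Neither Rgs2 nor Arrb2 was called without young B or aged B, where 2.71% and 4.98% of all genes were lower. Without aged sample A the call of Rgs2 was lost, where 4.26% of all genes were lower. Without aged C those of Gnai3 and Arrb2 were lost, where 2.87% were higher and 1.58% lower.

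Transcription regulators known to act on chemokine genes were called higher in 9 and lower in 2 of 18 cases, beside 9.73% and 7.97% of all genes, with a median of 0.69. Without young sample C, 2 were higher and 0 lower, in a fit that called 1.24% of all genes higher and 0.548% lower. The highest was Nfkb1, a subunit of NF-κB, which rose by 1.41 ± 0.18 on the log2 scale (estimate ± standard error, edgeR adjusted p = 0.00242). Nfkb2, Rela, Relb, Nfkbia, Nfkbiz, Stat3, Cebpb and Cebpd also rose. Nfkbia and Nfkbiz encode inhibitors or modulators of NF-κB that it induces itself, and Nfkbia stood at 1505 ± 276.5 CPM when young and at 3024 ± 454.6 CPM when aged (SD, n = 3). Irf7, a driver of the interferon response, was the lowest at -1.58 (adjusted p = 0.0152).

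Regulators of transcript stability showed 4 rises and no fall among 10 genes, beside 9.73% and 7.97% of all genes, with a median of 0.46. The rises numbered 0 without young sample C and 1 without aged sample C, where 1.24% and 2.87% of all genes were higher. Zc3h12a, an RNase that cuts inflammatory transcripts and is itself induced by CCL2, was the highest at 1.41 (edgeR adjusted p = 0.013), followed by Rc3h2, Rc3h1 and Zfp36l1. Zfp36, whose product binds AU-rich elements, had a log2 fold change of 0.41 (adjusted p = 0.155), and Tia1 was the lowest at -0.36 (adjusted p = 0.255). No gene of this list had an unadjusted p under 0.05 in the lower direction. Of 11 interferon-stimulated genes, 8 were called lower, beside 7.97% of all genes, and none higher, with a median of -1.35. The number lower was 1 without young sample C, 3 without young sample B and 5 without aged sample B, where 0.548%, 2.71% and 4.98% of all genes were lower. Ifit3 was the lowest at -2.36 (adjusted p = 0.00709). Cxcl10, an interferon-induced CXC chemokine, was the highest at -0.51 (adjusted p = 0.248).

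**Figure D5:**
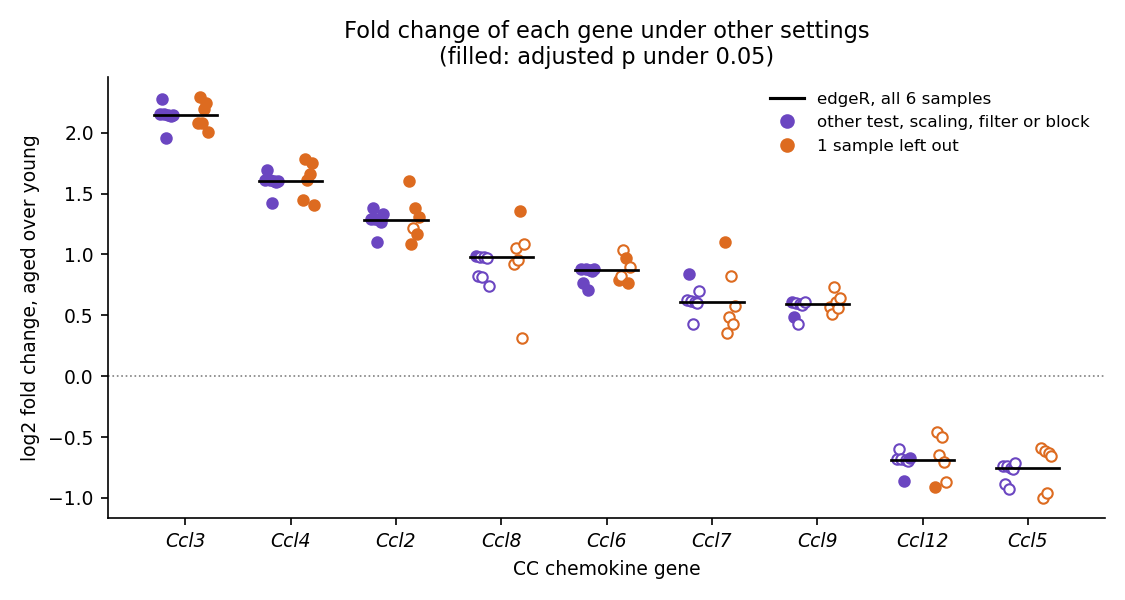
Log2 fold change of each chemokine with all 6 samples in edgeR (black line), under other tests, scalings, filters or the set letter as a block (purple) and with 1 sample left out (orange); filled points had an adjusted p under 0.05. Ccl3 and Ccl4 are filled under all 13 alternatives, Ccl2 under 12 and Ccl6 under 10, and no gene crosses 0.

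Across 13 alternatives for each gene, no log2 fold change of the 9 changed sign. Those of Ccl3 ranged from 1.96 to 2.30, those of Ccl4 from 1.41 to 1.78, those of Ccl2 from 1.08 to 1.60 and those of Ccl6 from 0.71 to 1.03. Among the genes without a call, Ccl12 passed the threshold under 3 alternatives, Ccl7, Ccl8 and Ccl9 under 2 each and Ccl5 under none.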

How the data were processed

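Reads of 6 SMART-Seq v4 libraries were aligned by the authors with STAR 2.7.3a to mm10 and quantified on Ensembl transcripts (release 102) in Partek Flow. The authors deposited the resulting expected counts per gene, not normalised, for genes with a total of at least 10; the strand setting is not stated in the sources used here. A second deposited table of their own DESeq2 comparison (normalised values, fold changes, p-values) and a further file were not used.

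Here, expected counts were rounded and tested in R 4.3.3 with edgeR 4.0.16 (TMM scaling, filterByExpr by age, quasi-likelihood test of aged against young, Benjamini-Hochberg adjustment over 11878 genes, threshold 0.05). TMM-scaled totals were used for CPM, with a prior count of 2 added for log2 CPM. Alternatives were DESeq2 1.42.0, limma-voom (limma 3.58.1) with sample weights, other scalings and filters, a 2-fold limit, a block on the set letter, and each sample left out in turn. The code was tested on simulated counts. Between samples of one age, the chi-square per gene was 31.9 to 121, above the sampling noise, so no 2 were treated as a single library; this does not show that they came from separate animals. Sequences were aligned with Biopython 1.88 in Python 3.11.15, and figures drawn with matplotlib 3.10.9. Gene positions matched GENCODE vM21 (GRCm38) for 99.2% of 14829 genes.

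The genes and lists were chosen with earlier results of these data known. Named genes are all 9 chemokines, called genes among the CC ligands and receptors, the highest and lowest of each list, genes between the outermost chemokines of each group, the sort markers and the 3 genes most alike to each chemokine. Others were named after their values were seen: the further called genes of the lists, the marker genes, Ccl22, Ccl24, Ccl25, Zfp36, the within-sample ratios and the marker sum without Chil3. Some members of the lists are not reported here by name. Protein sequences were not used here, and coding sequences took their place.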

Additional observations from a re-analysis of the deposited data

How the results depend on the processing

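Of the 117 values of log2 fold change that 13 alternatives gave for the 9 chemokines, 104 kept both their direction and their side of the threshold, 9 passed it newly and 4 lost it. The number of chemokines called higher was 4 and ranged from 2 to 5 when 1 sample was left out, the lowest without young sample C and the highest without young sample A or aged sample A, and was 6 with DESeq2 and with limma-voom; the number called lower ranged from 0 to 1. Library totals in place of TMM gave 1 chemokine lower, Ccl12 (adjusted p = 0.0498), moved the median of all genes from -0.02 to -0.20, and turned the split of all calls from 55.0% higher (1156 higher, 947 lower) to 27.4% higher (585 higher, 1553 lower). limma-voom called 1933 genes higher and 1713 lower, and the added 2-fold limit 545 and 499. Leaving out 1 sample gave 151 to 1574 genes higher and 67 to 1128 lower, both lowest without young sample C and highest without young sample A. The set letter as a replicate block gave 1 chemokine lower (Ccl12, -0.67, edgeR adjusted p = 0.0393), 2 other CC ligands and 2 CC receptors higher, and 1202 genes higher and 912 lower. Samples with the same letter did not all deviate together (correlations 0.181, -0.02 and 0.114 for A, B and C), and young C correlated best with aged B (0.138), so the letters were not taken as pairs.

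Other CC ligands called higher numbered 2 with DESeq2 and 1 with limma-voom, where 11.7% and 16.3% of all genes were higher. Such ligands numbered 0 to 1 with a sample left out. CC receptors called higher numbered 0 with DESeq2, library totals or no filter, 3 with limma-voom, and 0 to 3 with a sample left out. The 2-fold limit left 1 signalling gene higher and 1 lower, 3 transcription regulators and 2 stability regulators higher, and library totals left 5 transcription regulators higher. With a sample left out, signalling genes ranged from 0 to 3 higher and 0 to 3 lower, transcription regulators from 2 to 9 higher and 0 to 3 lower, stability regulators from 0 to 5 higher, and interferon-stimulated genes from 1 to 9 lower. The aged minus young difference in share, in percentage points, changed sign for Ccl6 (-2.86 to 1.58), Ccl7 (-2.78 to 0.961) and Ccl8 (-0.187 to 0.169) when a sample was left out, and for Ccl8 per kb (-0.111). The cause of these changes was not tested. Fits that left out a sample also rested on fewer samples. The depth of 15270103 to 17927483 counts limits genes with few counts, such as Ccl5 and Ccl11, and 3 samples an age limit every exact test.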
